A study of Homo sapiens with 4 samples.

Results

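FOXK2 peaks were examined that lie in unannotated intergenic DNA at an intermediate distance from genes, over 20 kb and up to 100 kb from the nearest transcription start site (TSS). A peak was a member when both the short and the detailed annotation of the deposited list named it intergenic, which leaves out repeats and CpG islands, and when its distance to the nearest TSS fell in that range. The list of FOXK2 ChIP replicate 1 held 1208 such peaks of 12471 (9.69%), and that of replicate 2 held 2791 of 27281 (10.2%). The chromatin came from OVCAR5, an established ovarian cancer cell line derived from ascites and labelled high-grade serous, grown without further treatment and used at passage 4 to 6. Both ChIP libraries were made with an antibody against FOXK2, and the matching input libraries were not analysed here. All samples were of this single line and condition, so the replicates showed how stable the peaks were and allowed no comparison between conditions. A gene named beside a peak is the one with the nearest TSS, and no link between peak and gene was measured.

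FOXK2 belongs to the forkhead family of transcription factors, whose winged-helix domain reads short A- and T-rich words such as TGTTTAC. Intergenic sites at a distance from promoters are where many enhancers lie, stretches of DNA that bind several transcription factors and can act on genes across long intervals of chromatin. AP-1, a dimer of FOS and JUN proteins, is a factor often found at such sites in epithelial cancer cells, and reads the palindrome-like word TGACTCA.

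The DNA at the centre of 8 members shows the classes of site on which the results turn. These are the best-scoring members found in both replicates that held the forkhead word alone, the AP-1 word alone, both words or neither word within 100 bp of the peak centre in the windows of both replicates, 2 of each. Each window is 201 bases of the plus strand of hg38 around the centre of the replicate 1 peak, in lower case, with the forkhead word (TGTTTAC, or GTAAACA where it lies on the other strand) and the AP-1 word (TGACTCA, or TGAGTCA on the other strand) in capitals. The first pair held the forkhead word alone.
LINC01817, chr2:150166349-150166549: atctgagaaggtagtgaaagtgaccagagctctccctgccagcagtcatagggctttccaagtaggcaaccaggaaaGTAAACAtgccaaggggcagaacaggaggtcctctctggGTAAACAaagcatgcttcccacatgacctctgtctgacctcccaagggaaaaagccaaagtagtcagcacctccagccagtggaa
PTPRJ, chr11:47924407-47924607: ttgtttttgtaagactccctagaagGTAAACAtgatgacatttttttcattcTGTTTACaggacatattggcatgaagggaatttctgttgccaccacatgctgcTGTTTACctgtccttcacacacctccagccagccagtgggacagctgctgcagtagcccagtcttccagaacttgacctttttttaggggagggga
The second pair held the AP-1 word alone.
PHLDA1, chr12:75944200-75944400: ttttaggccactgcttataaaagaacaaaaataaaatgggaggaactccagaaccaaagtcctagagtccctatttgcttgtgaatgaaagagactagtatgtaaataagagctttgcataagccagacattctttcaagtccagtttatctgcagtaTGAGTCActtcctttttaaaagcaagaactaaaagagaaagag
LINC01448, chr7:42646034-42646234: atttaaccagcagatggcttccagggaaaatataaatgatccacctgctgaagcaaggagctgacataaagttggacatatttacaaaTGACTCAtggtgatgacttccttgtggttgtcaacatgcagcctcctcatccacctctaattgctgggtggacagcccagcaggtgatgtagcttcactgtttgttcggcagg
The third pair held both words.
CYP27C1, chr2:127226699-127226899: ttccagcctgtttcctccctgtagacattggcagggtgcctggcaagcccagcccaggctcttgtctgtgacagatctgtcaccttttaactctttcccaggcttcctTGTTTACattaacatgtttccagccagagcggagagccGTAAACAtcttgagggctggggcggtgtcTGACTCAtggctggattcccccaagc
HTR5A-AS1, chr7:155166809-155167009: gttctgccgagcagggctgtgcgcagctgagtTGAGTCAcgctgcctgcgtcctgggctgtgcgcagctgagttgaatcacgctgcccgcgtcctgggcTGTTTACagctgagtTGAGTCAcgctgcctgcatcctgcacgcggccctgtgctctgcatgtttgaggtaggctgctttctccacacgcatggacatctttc
The last pair held neither word.
FABP6, chr5:160165314-160165514: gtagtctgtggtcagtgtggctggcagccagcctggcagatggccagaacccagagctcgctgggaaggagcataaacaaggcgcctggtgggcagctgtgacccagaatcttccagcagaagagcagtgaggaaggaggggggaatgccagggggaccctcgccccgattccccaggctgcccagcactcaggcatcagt
IGFBP3, chr7:45978305-45978505: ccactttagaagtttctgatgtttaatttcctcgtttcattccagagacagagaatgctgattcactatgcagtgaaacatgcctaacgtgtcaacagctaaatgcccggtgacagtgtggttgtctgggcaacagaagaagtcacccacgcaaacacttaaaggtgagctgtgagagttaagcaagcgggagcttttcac

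Copies of the forkhead word were repeated in several of these windows. With positions counted from 1 at the left end, the LINC01817 window held 2 copies, at 78 and 117, and the PTPRJ window held 3, at 26, 53 and 106. In the CYP27C1 window 3 sites followed each other at 109, 147 and 176, of which 2 were forkhead words and 1 was the AP-1 word. The HTR5A-AS1 window held 1 forkhead word and 2 AP-1 words, at 33, 100 and 115. The FABP6 window had no TGTTTAC but 1 copy of the variant TGTTTAT, and the IGFBP3 window had 1 copy of TGTTTGC, so neither was free of forkhead-like words. Both windows with the AP-1 word alone, at PHLDA1 and LINC01448, held 1 copy of the variant TATTTAC.

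Most members of the shorter list were found again in the other replicate. Of the 1208 members of replicate 1, 901 (74.6%, 95% Wilson interval 72.1% to 77.0%) were overlapped by at least 1 bp by a replicate 2 peak, against 74.9% of all peaks of that list. Of the 2791 members of replicate 2, 919 (32.9%, 31.2% to 34.7%) were overlapped by a replicate 1 peak, against 34.2% of that list. Members did not differ from all other peaks beyond the test in this respect: the difference was -0.37 percentage points in replicate 1 (interval -3.02 to 2.14, adjusted p = 0.78) and -1.47 in replicate 2 (-3.29 to 0.40, adjusted p = 0.149, two-sided Fisher's exact tests with Benjamini-Hochberg adjustment). Among the pairs, 870 joined a member to a member, with centres a median of 28 bp apart, while 31 members of replicate 1 and 49 of replicate 2 met a peak that the other list placed in a repeat. Together the lists held 3129 member loci.

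Recovery depended on peak score, the library-scaled tag count given by the peak caller. In the highest-scoring decile of its list, 104 of 105 replicate 1 members (99.0%) and 237 of 261 replicate 2 members (90.8%) had a partner. In the lowest decile the shares were 45.8% (54 of 118) and 1.65% (4 of 242). All other peaks also had lower shares at the bottom, from 99.6% to 48.8% in the replicate 1 list and from 91.0% to 1.70% in the other list. Between the ends, other peaks lay outside the interval of replicate 1 members in the fifth and ninth deciles, in opposite directions. Members had 87.4% in the fifth (95% Wilson interval 80.2% to 92.2%), against 76.8%. In the ninth they had 41.0% (33.1% to 49.5%), against 52.2%. In every other decile of both lists the share of other peaks lay within the members' interval, and no test was made. Scores of the 1208 members ran from 3.21 through a median of 5.85 to 51.1 in replicate 1, and those of the 2791 members from 3.12 through 7.14 to 86.4 in replicate 2. The share of members scoring above the median of the whole list was 48.8% and 47.5%, against 49.3% and 49.5% of other peaks (adjusted p = 0.78 and 0.0639, two-sided Fisher's exact test). With intergenic peaks in repeats and CpG islands included among the members, the shares were 46.3% and 44.9% against 49.8% and 50.1%, which passed the same exact test (adjusted p = 0.00836 and 1.41e-09). In the longer list the loci not found again were therefore mostly weak ones, with a median score percentile of 32.9, while the 870 shared members stood at 61.9 in replicate 1 and 77.9 in replicate 2.

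**Figure D1:**
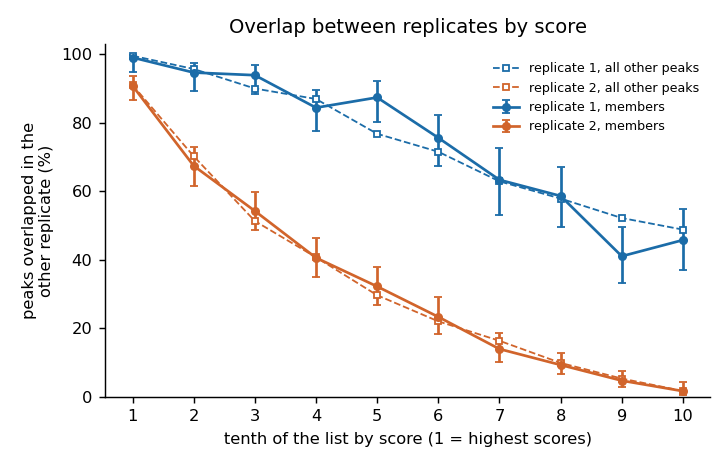
Share of peaks overlapped by a peak of the other replicate (y axis, %) in each decile of the list by score (x axis, 1 = highest), for members (filled circles, bars are 95% Wilson intervals) and all other peaks (open squares) of replicates 1 and 2. Members ran from 99.0% to 45.8% (replicate 1) and from 90.8% to 1.65% (replicate 2), and other peaks lay within their intervals except in the fifth and ninth deciles of replicate 1.

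Shared members kept their order. Across the 870 pairs the score percentiles had a Spearman's rho of 0.848, given as a description, since peaks of 1 library are not independent replicates. In 775 pairs the percentile was higher in replicate 2, whose list was the longer, and the cause of this shift was not tested.

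**Figure D2:**
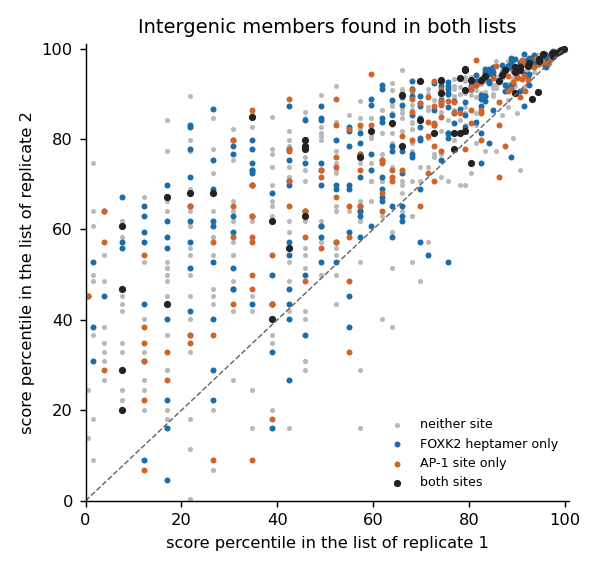
Score percentile of each of the 870 shared members in the list of replicate 1 (x axis) and of replicate 2 (y axis), coloured by the words in its replicate 1 window, with the dashed line at equal percentiles. Most points (775) lie above the line, and the strongest members of both lists meet in the upper right corner.

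The forkhead word marked the members and sat at their centres. TGTTTAC, on either strand and no more than 100 bp away from the centre, was in 410 members of replicate 1 (33.9%, 31.3% to 36.7%), against 30.5% of all its peaks and 2.98% of 2416 control windows of equal size placed 2000 bp to each side of the members. In replicate 2 it was in 856 members (30.7%, 29.0% to 32.4%), against 28.2% of all peaks and 2.90% of 5582 control windows. The odds ratios against control windows were 16.7 and 14.8 (adjusted p = 6.36e-142 and 1.25e-281, two-sided Fisher's exact test). The nearest copy lay a median of 21 bp and 19 bp from the centre, and in 65.1% and 67.5% of members with a copy it lay within 30 bp. The central 20-bp bin held 8.78 and 8.46 copies per 100 members, against 0.34 and 0.29 per bin in the control windows.

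The AP-1 word was the other frequent site, and it was spread more broadly. TGACTCA was in 261 members of replicate 1 (21.6%, 19.4% to 24.0%), against 16.4% of all its peaks and 3.27% of control windows. It was in 561 members of replicate 2 (20.1%, 18.7% to 21.6%), against 16.6% of all peaks and 3.22% of control windows. The odds ratios against control windows were 8.15 and 7.55 (adjusted p = 5.77e-67 and 1.19e-135, two-sided Fisher's exact test). Its nearest copy lay a median of 40 bp and 38 bp from the centre, and within 30 bp in 40.2% and 39.8% of members with a copy. The central bin held 2.57 and 3.26 copies per 100 members.

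**Figure D3:**
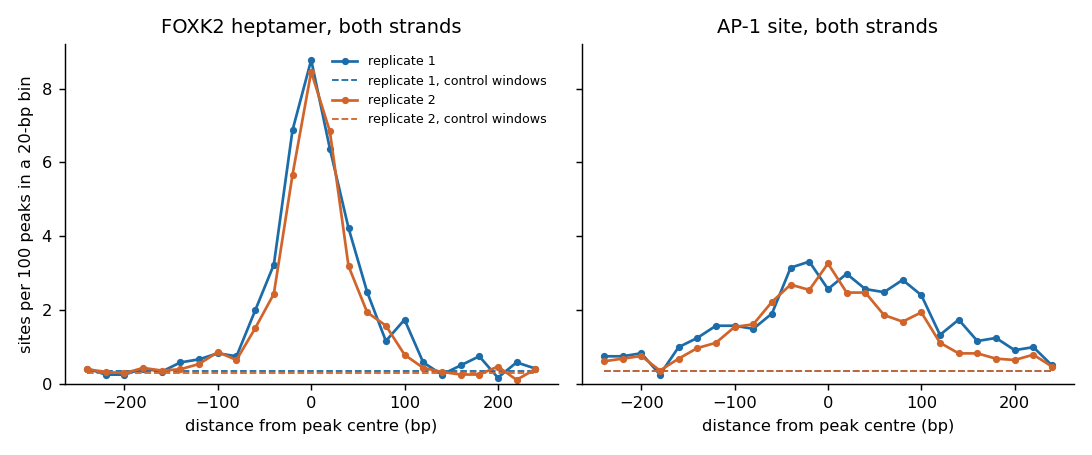
Sites per 100 members in 20-bp bins (y axis) by distance from the peak centre in bp (x axis) for the FOXK2 heptamer TGTTTAC and the AP-1 site TGACTCA, with the mean per bin of the control windows as dashed lines. The heptamer peaks at 8.78 and 8.46 sites in the central bin of replicates 1 and 2, while AP-1 sites reach 2.57 and 3.26 there over a wider base.

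Both words were more frequent in the highest-scoring decile of members than in the lowest, though not in steady steps. TGTTTAC was in 54.3% of replicate 1 members in the top decile and 27.1% in the bottom one, and in 49.8% and 23.6% of replicate 2 members. TGACTCA was in 31.4% and 15.3%, and in 30.3% and 14.5%. In replicate 1 its share in the seventh decile (26.7%) was above that in the second (25.2%), and the eighth was the lowest (12.9%). In all other peaks, promoters included, TGTTTAC ran between these deciles from 50.5% to 22.3% and from 43.3% to 28.0%, and TGACTCA from 17.4% to 14.2% and from 17.6% to 14.1%. TGTTTAC in the other peaks of replicate 2 was lowest in the sixth decile (24.1%), not in the last. Members with a partner held TGTTTAC in 37.8% (341 of 901) and 39.8% (366 of 919), and members seen in 1 list alone in 22.5% (69 of 307) and 26.2% (490 of 1872), where control windows held it in 2.61% and 2.75%. Peaks that were not recovered thus still carried the word well above their own control windows, as a description without a test.

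The words tended to be in different members. TGACTCA was in 16.6% of replicate 1 members with TGTTTAC and in 24.2% of those without (odds ratio 0.623, adjusted p = 0.00244), and in 15.2% and 22.3% in replicate 2 (odds ratio 0.625, adjusted p = 2.59e-05, two-sided Fisher's exact test). The same odds ratio was 0.683 and 0.534 in the other peaks outside promoters. The contrast did not pass the test in windows of 50 bp (-3.20 percentage points over both replicates, adjusted p up to 0.149) or in members beyond 50 kb (-7.64, adjusted p up to 0.0699).

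Members with both words were few and strong. They numbered 68 in replicate 1 (5.63%) and 130 in replicate 2 (4.66%), stood at a median score percentile of 75.6 and 78.2, and were overlapped in 89.7% and 54.6%. Members with neither word made up 50.1% and 53.9% of the lists, stood at 42.6 and 41.9, and were overlapped in 68.3% and 26.6%. Members with TGTTTAC alone (28.3% and 26.0%) were overlapped in 81.9% and 40.6%, against 76.2% and 35.5% for the 193 and 431 members with TGACTCA alone. The Wilson intervals of these single-word classes met in replicate 1 (77.4% to 85.6% and 69.7% to 81.6%). They also met in replicate 2 (37.1% to 44.25% and 31.1% to 40.1%), and no test was made. In members with both words the nearest pair was a median of 37.5 bp and 41.5 bp apart from centre to centre, and the closest pair was 7 bp apart in both replicates. These windows therefore showed no single fixed spacing, with quartiles of 21 and 70.8 bp in replicate 1 and 22.3 and 74.8 bp in replicate 2.

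Set against all other peaks, members were richer in both words, a difference that did not pass the test once promoter peaks were left out. TGTTTAC was in 30.2% and 27.9% of the other peaks (odds ratio 1.19 and 1.14, adjusted p = 0.0155 and 0.00607), and TGACTCA in 15.9% and 16.2% (odds ratio 1.46 and 1.30, adjusted p = 4.38e-06 and 2.92e-06, two-sided Fisher's exact test). Promoter peaks held TGTTTAC in 14.4% and 10.9% and TGACTCA in 3.88% and 3.36%. With promoter peaks left out of the comparison, members had TGTTTAC less often than the rest in replicate 1 (33.9% against 35.2%) and replicate 2 (30.7% against 32.1%), by 1.24 and 1.46 percentage points, and the difference did not pass the two-sided Fisher's exact test (adjusted p = 0.561 and 0.247). TGACTCA was then in 21.6% against 19.7% and in 20.1% against 19.4% (adjusted p = 0.247 and 0.561, two-sided Fisher's exact test). The focus ratio, the fraction of tags on the expected side of the centre, behaved alike: 52.8% and 52.7% of members were above the median of their list, against 49.5% of other peaks in both (adjusted p = 0.0439 and 0.00483), and against 52.1% and 52.5% of those outside promoters (adjusted p = 0.703 and 0.855, two-sided Fisher's exact test). The TGTTTAC call against all other peaks was also lost for members at 20 to 50 kb (2.53 percentage points over both replicates, adjusted p up to 0.275). It was lost too in windows of 50 bp (2.37, adjusted p up to 0.0568, two-sided Fisher's exact tests), against 3.28 in the main comparison. The focus ratio call was also lost at 20 to 50 kb (up to 0.112), beyond 50 kb (up to 0.310), for members over 20 kb from every GENCODE start (up to 0.210) and among peaks above the median score (up to 0.0507, two-sided Fisher's exact tests). In that order the differences were 3.91, 2.46, 3.90 and 4.08 percentage points over both replicates. The main value was 3.30, and only the one beyond 50 kb fell below it.

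Members did not differ from nearer or farther intergenic peaks in TGTTTAC or TGACTCA beyond the test. TGTTTAC was in 32.2% and 28.7% of intergenic peaks up to 20 kb from a TSS (845 and 1866 peaks) and in 35.8% and 31.8% of those beyond 100 kb (786 and 1854 peaks), with members between them in both replicates. The interval of the difference between members and nearer peaks was -2.40 to 5.85 percentage points in replicate 1 and -0.74 to 4.6 in replicate 2, and between members and farther peaks -6.11 to 2.44 and -3.89 to 1.56, with every adjusted p at 0.275 or above. Counting 4 forkhead words, TGTTTAC and 3 variants of it, members held one in 59.0% and 55.3%, against 54.1% and 50.4% of nearer peaks (adjusted p = 0.0398 and 0.00217) and 61.8% and 61.1% of farther peaks (adjusted p = 0.269 and 0.00025, two-sided Fisher's exact test). The pass against nearer peaks depends on the adjustment in replicate 1 (p = 0.0266 before it, two-sided Fisher's exact test). Its family holds tests of the share upstream of the TSS, on which the class bears, so the pass is not read as a difference. TGACTCA was in 24.7% and 22.9% of the farther peaks, 3.08 and 2.77 percentage points above members, which did not pass the test (adjusted p = 0.227 and 0.0609, two-sided Fisher's exact test). Base composition followed distance, with a median GC content in the 201-bp window of 46.3% in nearer peaks of both replicates, 43.8% and 44.3% in members and 41.3% and 40.8% in farther peaks. Its part in the small differences between these classes was not tested.

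**Figure D4:**
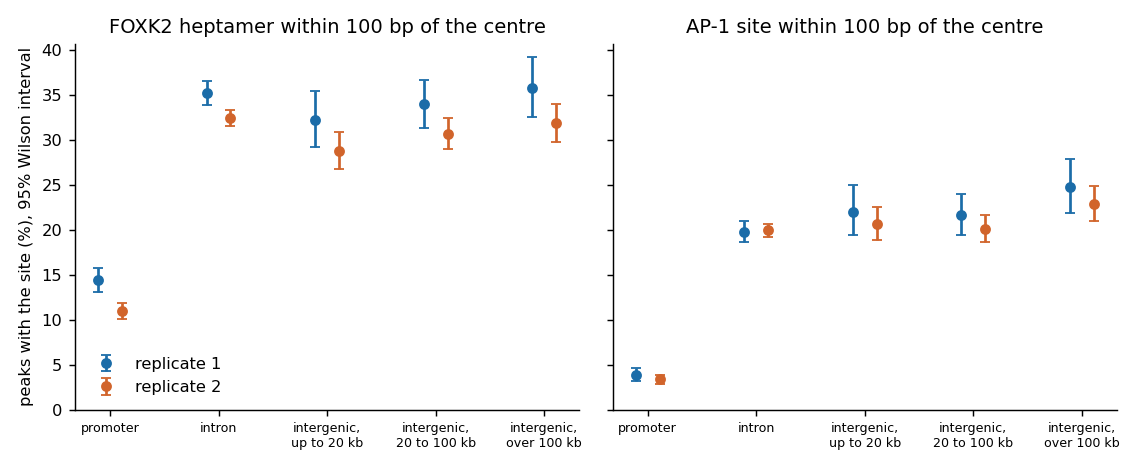
Share of peaks with the FOXK2 heptamer TGTTTAC or the AP-1 site TGACTCA within 100 bp of the centre (y axis, %, points with 95% Wilson intervals) in promoter, intron and 3 intergenic classes by distance from the TSS, for replicates 1 and 2. Members (20 to 100 kb) lie at 33.9% and 30.7% for the heptamer and 21.6% and 20.1% for the AP-1 site, near the intron and other intergenic peaks and above promoters.

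Words of other transcription factors were counted over a list of 20 on both strands of the same windows. Against control windows, 12 were more frequent in members in both replicates and 0 were less frequent (adjusted p under the threshold of 0.05 in both, two-sided Fisher's exact test). Beside the words above these included ACATTCC, read by TEAD factors of the Hippo pathway, in 9.44% and 8.10% of members against 2.69% and 2.67% of control windows. TGTGGTT, read by RUNX factors, was in 9.19% and 9.42% against 3.73% and 3.89%. The word of CTCF, the factor that anchors chromatin loops, was in 3.89% and 3.48% against 0.46% and 0.68%. The forkhead variants TGTTTAT (17.3% and 15.3% against 7.33% and 6.18%) and TATTTAC (9.44% and 9.82% against 3.89% and 3.62%) were also more frequent. The BACH and NFE2 word contains the AP-1 word and counts part of the same sites. The GATA word AGATAA, at 12.9% and 15.0% of members against 13.7% of control windows in both, did not pass the test, and neither did the GRHL word AACCNGTT. Control windows were not matched to members for repeats or base composition, and the part of these in the differences was not tested.

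Against all other peaks, promoter peaks included, the list split in both directions. The rule keeps promoters and CpG islands out of the members, so it bears on this split, which is given as a description. Of the list, only TGTTTAC and TGACTCA were compared with peaks outside promoters. Neither difference passed there (-1.35 and 1.32 percentage points over both replicates). In both replicates 5 of the 20 were more frequent in members than in all other peaks: the forkhead word TGTTTAC and its variant TGTTTAT, the AP-1 word, and the TEAD and RUNX words. The 4 that were less frequent were read by factors common at promoters: the KLF and SP word GGGCGGG (2.40% and 2.37% against 12.2% and 11.2%), the ETS word CCGGAAG (1.74% and 1.43% against 6.11% and 5.29%), the E-box CACGTG (4.14% and 4.19% against 6.22% and 5.32%) and the cAMP response element TGACGTCA (0.17% and 0.36% against 0.88% and 0.85%).

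Within the band, the count of members per 10-kb bin fell with distance. The amount of intergenic sequence at each distance was not measured, so the counts give no density of peaks. The 10-kb bin nearest the TSS held 282 members of replicate 1 (23.3%) and 674 of replicate 2 (24.1%), and the farthest held 77 (6.37%) and 190 (6.81%). The median distance was 45018 and 44531 bp. TGTTTAC varied between 29.1% and 45.5% over the bins of replicate 1 and between 27.1% and 34.7% over those of replicate 2. In replicate 1 the nearest bin was the lowest (29.1%, 24.1% to 34.6%) and the farthest the highest (45.5%, 34.8% to 56.5%), while the same bins had overlapping intervals in replicate 2 (27.4%, 24.2% to 30.9%, and 34.7%, 28.3% to 41.8%). Upstream of the nearest TSS lay 62.3% and 61.2% of members, beside 78.9% and 79.3% of nearer intergenic peaks and 50.4% and 50.3% of farther ones. These shares are a description, with no test, since an intergenic peak downstream of a TSS has to lie past the end of the gene and the rule on class and distance thus bears on them.

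**Figure D5:**
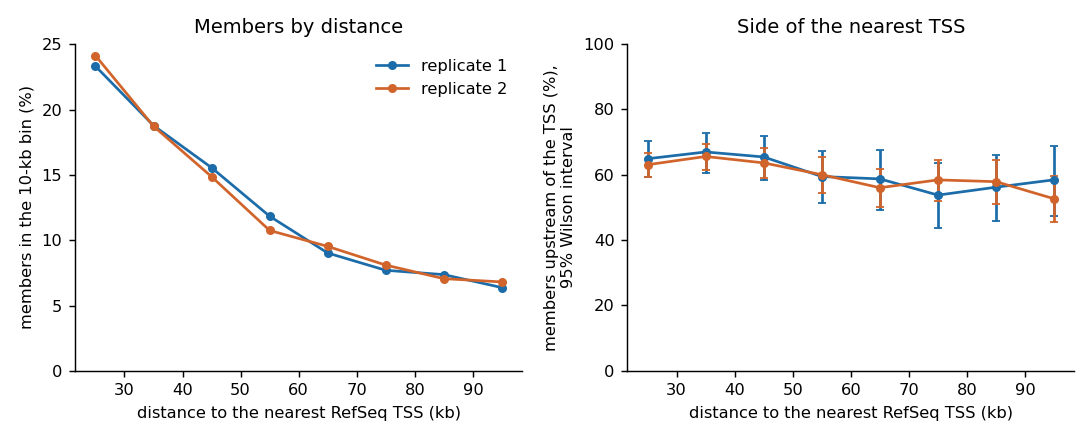
Left, share of members (y axis, %) in each 10-kb bin of distance to the nearest RefSeq TSS (x axis, kb) in replicates 1 and 2. Right, share of each bin upstream of the TSS (y axis, %, 95% Wilson intervals), which runs from 64.9% and 63.1% in the nearest bin to 58.4% and 52.6% in the farthest.

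At the lower limit the first member of replicate 1 lay 20041 bp upstream of NUBP1 with a score of 4.53, and the first peak left out lay 19970 bp upstream of FASLG with a score of 4.72. In replicate 2 they lay 20001 bp downstream of MIR6506 (score 14.6) and 19982 bp downstream of MIR4795 (score 5.35). At the upper limit the last member of both lists was the same locus, 99963 and 99914 bp downstream of MIR5708, with scores of 6.23 and 12.5. The first peaks beyond it lay 100004 bp upstream of LOC102724152 (score 5.66) and 100015 bp downstream of MIR148A (score 18.7).

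The label intergenic holds for the RefSeq-based annotation of the files and less so for a fuller one. Against all transcript starts of GENCODE release 44, 591 members of replicate 1 (48.9%, 46.1% to 51.7%) and 1337 of replicate 2 (47.9%, 46.1% to 49.8%) were still over 20 kb from every start. The median distance became 19433 and 18763 bp, and 63 and 160 members lay within 1000 bp of a start. Outside any GENCODE gene body lay 66.6% and 67.9% of members, while 22.9% and 20.9% lay in long noncoding RNA genes and 9.19% and 9.82% in protein-coding genes. The gene of the nearest RefSeq TSS was protein-coding for 65.7% and 66.0% of members, against 76.2% and 74.8% of other peaks. Limiting members to the 591 and 1337 left the TGTTTAC difference from all other peaks at 3.31 percentage points, which no longer passed the test (adjusted p up to 0.185, two-sided Fisher's exact test), and kept the AP-1 difference past it.

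The strongest shared member was a forkhead site beside a noncoding transcript. The peak 90558 bp downstream of LINC01817 scored 51.1 in replicate 1 (rank 13) and 86.4 in replicate 2 (rank 22), with focus ratios of 0.882 and 0.885, and its centre lay 80 bp from the start of an unnamed GENCODE long noncoding RNA. CYP27C1, a cytochrome P450 gene, followed with a peak 21032 bp upstream that scored 47.3 (rank 19) and 84.5 (rank 25). The centre of that peak lay 6486 bp from a GENCODE start of the same gene. The third lay 56051 bp upstream of PTPRJ, a receptor tyrosine phosphatase gene, and scored 36.6 (rank 47) and 70.5 (rank 49). All 3 are among the windows printed above with 2 or 3 copies of TGTTTAC. In both lists they ranked above every other member, and so did the peak next to HTR5A-AS1, which scored 29.4 (rank 94) and 56.7 (rank 105).

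The other 6 of the 10 best-ranked members stood next to genes of varied function. LPIN2, which encodes a phosphatidate phosphatase of lipid metabolism, had a peak 25650 bp upstream (chr18:3037492-3037702 in replicate 1) with scores of 27.0 and 52.5 (ranks 121 and 126). FABP6, an ileal bile acid binding protein gene, had one 21953 bp upstream with scores of 24.9 and 56.2 (ranks 152 and 107). IGFBP3, whose product binds insulin-like growth factors, had one 57133 bp upstream with scores of 21.1 and 46.0 (ranks 236 and 187). It lay within the body of an unnamed GENCODE long noncoding RNA gene. The FABP6 and IGFBP3 peaks reached these ranks without an exact heptamer. The peak 43425 bp from the start of LBH, a transcription cofactor gene (chr2:30274851-30275061), scored 21.9 and 40.9 (ranks 220 and 239) and lay within the longer LBH gene body of GENCODE. The peaks next to MIR6730 (chr1:12549926-12550136, scores 28.3 and 49.8) and LINC00343 (chr13:105774758-105774968, scores 23.6 and 40.3) completed the list.

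Some strong members had no partner in the other list. Of replicate 2 members, 237 of 261 in the top score decile had a partner, and 174 of 258 in the second. The counts for replicate 1 were 104 of 105 and 124 of 131. Only the highest-scoring members without a partner are named here. In replicate 1 the highest was 31692 bp upstream of MIR4783, with a score of 13.4 (rank 841), and in replicate 2 a peak 31426 bp upstream of the same microRNA gene scored 23.6 (rank 995). These are neighbours on chromosome 2, at 127455205 to 127455415 and at 127454916 to 127455172, which lie side by side without overlapping, so both lists had a peak there but not a shared one. MTURN had one in replicate 1 at 71784 bp downstream (score 10.0, rank 1839), and ZBED5-AS1 one in replicate 2 at 69517 bp downstream (score 23.2, rank 1047). The others named lay next to TCIM in replicate 1 (score 10.4, rank 1682) and MIR4471 in replicate 2 (score 23.9, rank 966). Near misses of this kind were rare: 19 of 307 unpartnered members of replicate 1 (6.19%) and 15 of 1872 of replicate 2 (0.80%) had a peak centre of the other list within 500 bp.

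Most genes had a single member. Members fell to 1027 nearest genes in replicate 1 and 2097 in replicate 2, of which 837 were in both, and 873 and 1586 genes had 1 member. ERRFI1, which encodes a feedback inhibitor of the EGF receptor, had the most in replicate 1, with 5 members, and 6 in replicate 2, of which 4 were shared. They lay from 71130 bp upstream to 21268 bp downstream and were of middling strength, the best at scores of 6.60 and 10.1 (ranks 4892 and 7625). LINC01714 had 4 and 7, LINC02530, LNCATV, MIR8079 and SUMO1P1 each had 3 and 5, and the best of LINC02530 scored 9.24 and 27.1.

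Of the 7 FOXK2 targets that the study names, 0 had a member in both lists, against 534 of 20056 protein-coding genes (2.66%). In the replicate 2 list 2 of the 7 had one (KLF9 and ATXN1), against 1380 of the 20056, and in the replicate 1 list 0 had one, against 664. The shared intergenic peak upstream of KDM3A lies within this distance but in a repeat, and so is not a member. Among 14 genes of the unfolded protein response, VEGFA alone had one in both. Its shared peak, 32830 bp downstream of the TSS of this angiogenic growth factor gene (chr6:43804710-43804920 in replicate 1), scored 8.49 in replicate 1 (rank 2809) and 15.3 in replicate 2 (rank 3113) and held TGTTTAC in both windows. Among 9 stemness genes ALDH1A1 had one, whose product is an aldehyde dehydrogenase and a marker of stem-like ovarian cancer cells. Its shared peak lay 26238 bp upstream (chr9:72979450-72979660) and scored 8.49 (rank 2809) and 17.1 (rank 2416), with a further peak 70047 bp upstream in replicate 2 alone. Among 48 genes from a printed excerpt of the bound genes with lower expression after FOXK2 knockdown, 6 had one (ABCA1, BIRC3, LBH, NDRG1, SDK1 and YPEL2). That excerpt does not hold all such genes, and it was chosen in part on these samples and is not independent of the peaks.

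Members in both peak lists were also counted over gene lists, beside the 2.66% of all protein-coding genes. These lists were chosen with earlier results of these data known, so the shares do not show an excess. They were present at 3 of 12 NF-kB feedback genes (25%), led by BIRC3, an inhibitor of apoptosis. Its peaks 75132 bp and 49009 bp upstream scored 13 and 9.24 in replicate 1 and 24.4 and 13.2 in replicate 2, and each held 1 copy of TGTTTAC. NFKBIA and TNIP3 were the other genes. They were present at 2 of 12 genes of the EGF receptor family and its ligands (16.7%): EGFR had peaks 57587 and 51481 bp upstream, with scores of 10.9 and 10.4 in replicate 1 and 19.6 and 15.2 in replicate 2, each with 1 AP-1 word, and TGFA had 1 shared peak. Among 26 integrin, laminin and collagen genes 3 (11.5%) had members in both (ITGAV, ITGB1 and ITGB6), and the strongest of their peaks, 52062 bp upstream of ITGB1 (chr10:33010322-33010532), scored 13.8 (rank 776) and 34.5 (rank 387). Among 18 epithelial junction and keratin genes 3 (16.7%) had them (CLDN1, DSP and KRT80), among them the tight junction gene CLDN1, whose peaks 23055 bp upstream and 92200 bp downstream scored 18.5 and 13.4 in replicate 1 and 35.5 and 27.7 in replicate 2, each with 1 TGTTTAC. The peak 23055 bp upstream of CLDN1 lies in the GENCODE body of its neighbour CLDN16.

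In the lists of transcription factor genes, 3 of 19 forkhead genes (15.8%, against 2.66% of all protein-coding genes) had members in both peak lists, including FOXK2 itself, whose shared peak 25071 bp upstream (chr17:82494542-82494752) was weak in replicate 1 (score 4.72, rank 8857) and middling in replicate 2 (7.58, rank 12649) and held neither word. FOXA1 and FOXN2 were the others. The same held for EHF and ETS1 of 14 ETS factor genes (14.3%), KLF6 of 14 Kruppel-like factor genes (7.14%) and 0 of 13 AP-1 subunit genes. In signalling lists it held for BMP4 and SKIL of 20 TGF-beta pathway genes (10%), CCN1 of 14 Hippo genes (7.14%), and CCL28 and CSF1 of 21 chemokine and cytokine genes (9.52%), CSF1 with peaks on different sides of its TSS. In each list the counts are small, the lists were not chosen independently of these data and no test was made. Nothing is therefore read from the counts about the lists.

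Fewer members than other peaks had another peak nearby, a difference on which the distance rule bears. Members lie over 20 kb from the nearest annotated TSS, so a promoter peak cannot lie within 12.5 kb of them. Other peaks can have such a neighbour. Another peak of the same list lay within 12.5 kb of 16.9% of replicate 1 members, against 20.2% of all its peaks, and of 29.5% of replicate 2 members, against 31.5% of all its peaks. Against the other peaks the differences were -3.65 and -2.15 percentage points (adjusted p = 0.00608 and 0.0366, two-sided Fisher's exact test). Because the rule sets part of this difference in advance, the test cannot decide whether members stand more alone, and nothing is read from it. The call was lost for members at 20 to 50 kb (-1.18 over both replicates, adjusted p up to 0.785), against -5.25 for those beyond 50 kb. It was also lost without chromosome 8 (-2.66, adjusted p up to 0.0662) and with promoters left out (-2.69, adjusted p up to 0.240), and at a link of 50 kb the differences were -0.06 in replicate 1 and 0.63 in replicate 2 (adjusted p up to 0.976, two-sided Fisher's exact test). Runs of members with gaps of up to 12.5 kb were short, 61 in replicate 1 and 259 in replicate 2, with at most 3 and 4 members. In replicate 1 a run of 3 lay downstream of CCN1, the gene of a secreted matrix protein and Hippo target, over 16430 bp, and all 3 were overlapped in replicate 2.

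Members were present on every chromosome from 1 to 22 and on X. Their share of a chromosome's peaks was lowest on chromosome 19, at 1.5% and 2.57%, and stood at 13.7% and 13.5% on chromosome 6. Chromosome 8 had strong members, at a median score percentile of 68.0 and 70.8, where all its peaks stood at 75.6 and 74.6. Copy number of this line was not measured here, and its part in the scores was not tested.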

How the data were processed

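FOXK2 ChIP-seq libraries of OVCAR5 cells in 2 replicates were analysed from the peak lists that the authors called and annotated per replicate with HOMER 4.10, after mapping single-end reads to hg38 with Bowtie2 2.2.6. The deposited peak score is a tag count scaled to its library, so it was ranked within its own list only. The deposited focus ratio is a fraction. Distances and classes were the authors' annotation to the nearest TSS, and gene symbols were updated by gene ID with a RefSeq table (1207 of 1208 and 2778 of 2791 members matched).

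Scores below 10 lay within 0.00488 of whole multiples of 0.1886 in replicate 1 and within 0.00496 of those of 0.1487 in replicate 2. If scores are per 10000000 tags, the default in HOMER, the weakest peaks held 16 and 21 tags. Peaks spanned 210 and 256 bp.

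Sequence was read from hg38, on both strands, in windows of 100 bp to each side of the centre. Control windows were not filtered for repeats or CpG islands, and their pairing with members was not used in the tests. Shares carry Wilson intervals at 95%, which cover counting error only. Each comparison was a two-sided Fisher's exact test per replicate over peaks, which are not independent samples, with Benjamini-Hochberg adjustment over both replicates and all results of a family (12 tests against other peaks, 12 against nearer and farther peaks, of which those of the upstream share are not given because the class bears on it, 40 for the motif list). A result passed only at an adjusted p below 0.05 in the same direction in both replicates. The tests of the upstream share were kept in the adjustment of their family.

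The members and lists were chosen with earlier results of these data known. Named were the 10 shared members with the best mean score percentile, the 3 highest-scoring unpartnered members of each list, the members at the limits of the band, the 5 genes with most members (6 are named, since 4 tied in the last places), and list genes with members in both lists. Overlap, motif and test steps were tested on simulated data. The tools were Python 3.11.15 with scipy 1.17.1, numpy 2.4.6, pysam 0.24.0, pandas 2.3.3 and matplotlib 3.10.9, samtools 1.23.1, and the GENCODE release 44 annotation. Input libraries were not analysed here, so no enrichment over input was computed.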

Additional observations from a re-analysis of the deposited data

How the results depend on the processing

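The 13 tested results gave 129 alternative values beside those of 1 replicate alone. In 55 a passed test was kept in the same direction, in 16 it was lost (2 of these also changed sign), in 2 it was newly passed, and in 56 it was passed neither before nor after (8 of these changed sign). Values are differences in percentage points, averaged over both replicates. The share of peaks with a neighbour is among the results, though the distance rule bears on it. Leaving out a replicate leaves the other's own test, which every passed result had passed already, so it says nothing of stability. With other peaks limited to those outside promoters, members differed by -1.35 for TGTTTAC against 3.28 with promoters, by 1.32 against 4.83 for TGACTCA, by 0.48 against 3.30 for the focus ratio and by -2.69 against -2.90 for peaks with a neighbour, and none passed the test. With peaks linked within 50 kb the last was 0.29, with opposite signs in the replicates, and without chromosome 8 it was -2.66. The next calls were also lost, so these values are differences that did not pass the test. Members at 20 to 50 kb stood at 3.91 for the focus ratio, 2.53 for TGTTTAC and -1.18 for neighbours, and those beyond 50 kb at 2.46 for the focus ratio and -7.64 for TGACTCA with against without TGTTTAC. Among peaks above the median score the focus ratio stood at 4.08. Members also over 20 kb from every GENCODE start stood at 3.90 for the focus ratio and 3.31 for TGTTTAC. Windows of 50 bp gave 2.37 for TGTTTAC and -3.20 for TGACTCA with against without it. Passing the test in the alternative only were the share above the median score with repeats and CpG islands included (-4.36) and the 4-word forkhead core against nearer intergenic peaks (4.93). The pass of the forkhead core depends on an adjustment family that holds the tests of the upstream share, so nothing is read from it. The causes were not tested. No paired analysis was possible because no file of the inputs, whose replicate numbers match those of the ChIP libraries, was analysed here.

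With 1 line, 1 condition and 2 lists of unequal length, the tests compare peaks within lists and say nothing of variation between cultures beyond these. The weakest called peaks differed between the lists, so an unpartnered peak was not shown to lack signal in the other library. Tests over peaks treat neighbouring peaks as independent.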
